A study of Danio rerio with 12 samples.

Results

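In some genes, the difference between the GFP+ and GFP- fractions of the *sqet31Et* heart changed between 48 and 72 hours post fertilization (hpf). This change was measured as 1 contrast, the stage by fraction interaction. For every gene the interaction is the log2 fold change (log2FC) of GFP+ over GFP- at 72 hpf minus the same log2FC at 48 hpf, so that a positive value means that the gene moved towards the GFP+ fraction with age and a negative value that it moved towards the GFP- fraction. All 12 libraries of the series entered, as 4 groups of 3: GFP+ at 72 hpf, GFP- at 72 hpf, GFP+ at 48 hpf and GFP- at 48 hpf. Of the 27191 genes in the count files, 23222 passed the filter on low counts and were tested, and 1896 of them (8.16%) were called by edgeR's quasi-likelihood test at a Benjamini-Hochberg adjusted p-value (padj) below 0.05. Rises and falls are given as log2FC of 72 over 48 hpf within a fraction, and interactions are differences of log2FC. The interaction was higher in 573 genes (2.47% of those tested) and lower in 1323 (5.7%). These shares are the background for every count of called list members below.

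All 4 groups came from embryos of 1 genotype, the enhancer trap line *sqet31Et*, without any treatment. The line carries a Tol2 transposon in which EGFP stands behind a basic promoter of *krt4*, a keratin gene. The reporter is bright in the atrioventricular canal (AVC) and bulbus arteriosus and dim in some other myocardium. Its signal in the bulbus was seen by the authors only at the later stage. The GFP+ cells of the earlier and later stage may therefore come from different structures. How far this took part in the interactions was not tested. Pools of hearts from a large-scale extraction were dissociated and sorted by fluorescence against gates set on wild-type hearts, so that GFP+ cells are fluorescent cells of the heart preparation and GFP- cells all its other cells. GEO's design text calls the 3 libraries of a group biological replicates and a figure legend of the study calls them technical. If they are technical, the p-values measure only the spread between such libraries.

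The AVC is the narrow segment between atrium and ventricle. Its myocardium conducts slowly and can act as a secondary pacemaker, and signals such as BMP, Wnt and Notch pattern it while the endocardium next to it forms the valve cushions. The bulbus arteriosus is the elastic outflow chamber of the teleost heart, built of smooth muscle and elastic fibre. An interaction between stage and fraction can arise on either side: a gene can change with age in the GFP+ cells, in the GFP- cells, or in both. In bulk fractions, fewer cells of a type and less RNA per cell cannot be told apart.

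Total counts per library were 20530602 to 62359004, and 24792 to 26528 genes were detected. Replicate 1 of GFP- at 72 hpf stood apart: its 10 most counted genes took 21.0% of its counts, against at most 8.47% in every other library, and its TMM factor, which scales out differences in composition, was 0.575, against 0.886 to 1.18. Transcripts of several tissues besides the heart were counted, and markers of the tissues moved between the groups. The summed CPM (counts scaled by library size and edgeR's TMM factors) of 5 cardiomyocyte markers was 861 to 1343 in GFP+ and 141 to 709 in GFP- libraries at 72 hpf, against 1521 to 2774 in GFP+ and 24.9 to 126 in GFP- libraries at 48 hpf. Over the tested genes the median interaction was -0.10, and 0.003 without replicate 1 of GFP- at 72 hpf. With library totals in place of TMM, the median change of all genes between the stages was -0.32 in GFP+ and -0.10 in GFP- cells, against -0.02 and 0.14 with TMM.

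Loss of a fraction difference was more frequent than gain. Of the 1896 called genes, 667 (35.2%) were higher in GFP+ at 48 hpf and no longer called at 72 hpf, and 339 (17.9%) were lower in GFP+ at 48 hpf and no longer called at 72 hpf. A difference not called at 48 hpf was called at 72 hpf in 118 genes (6.22%) that were then higher in GFP+ and in 399 genes (21.0%) that were then lower. The fraction difference reversed, which means that it was called at both stages with opposite signs, in 159 genes. Of these, 67 reversed to higher in GFP+ at 72 hpf and 92 to lower. The difference was called at both stages with the same sign and became larger in 72 genes and smaller in 74, and 68 genes fell in none of these classes. As background, over all tested genes 6.22% were higher and 10.8% lower in GFP+ than in GFP- at 72 hpf, against 14.6% higher and 14.4% lower at 48 hpf.

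**Figure D1:**
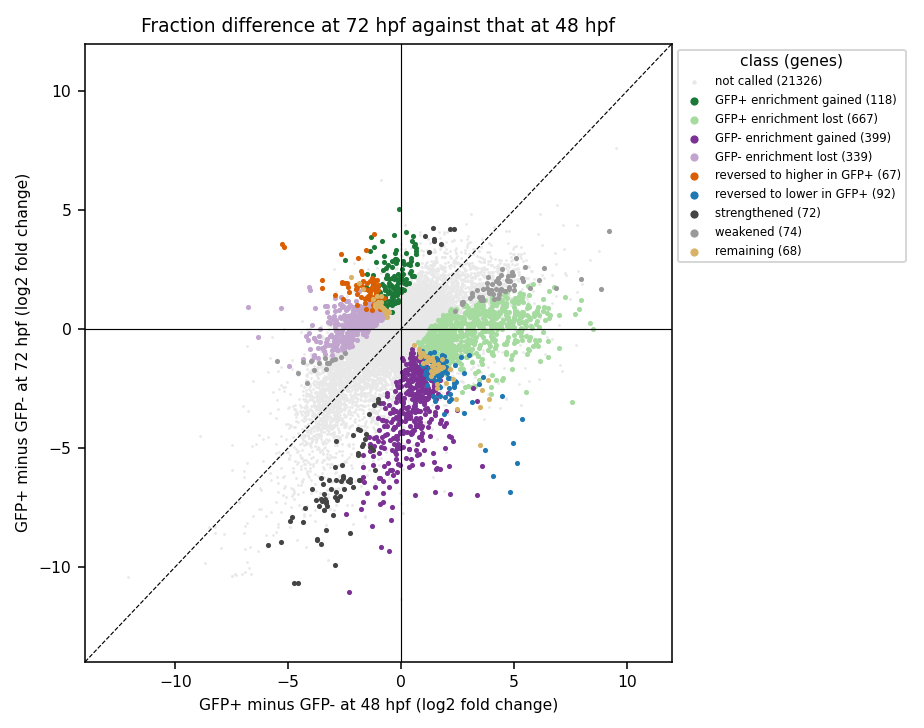
Each point is 1 tested gene, with its log2FC of GFP+ over GFP- at 72 hpf on the vertical axis and at 48 hpf on the horizontal axis. Called genes are coloured by class and the dashed line marks equal differences, and 667 genes (light green) were called higher in GFP+ at 48 hpf, with a median log2FC of 2.84, and not called at 72 hpf, with a median of -0.24 and a range of -3.08 to 1.89.

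The change came from the GFP- side more often than from the GFP+ side. A change between the stages was called in GFP- cells only for 1157 of the 1896 genes and in GFP+ cells only for 346. It was called in both with opposite signs for 194, in both with the same sign for 192 and in neither for 7. The larger change was in GFP- cells for 1364 genes and in GFP+ cells for 532. These counts have to be read against the background, since over all tested genes 26% rose and 22.2% fell with age in GFP- cells, against 11.4% and 11.5% in GFP+ cells. Among the 667 genes with a lost GFP+ enrichment, 594 rose with age in GFP- cells and 101 fell in GFP+ cells. In the 118 genes with a gained GFP+ enrichment the order was the other way, with 82 that rose in GFP+ cells and 41 that fell in GFP- cells. Of the 399 genes with a gained GFP- enrichment 301 rose in GFP- cells and 155 fell in GFP+ cells, and of the 339 with a lost GFP- enrichment 286 fell in GFP- cells and 77 rose in GFP+ cells.

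**Figure D2:**
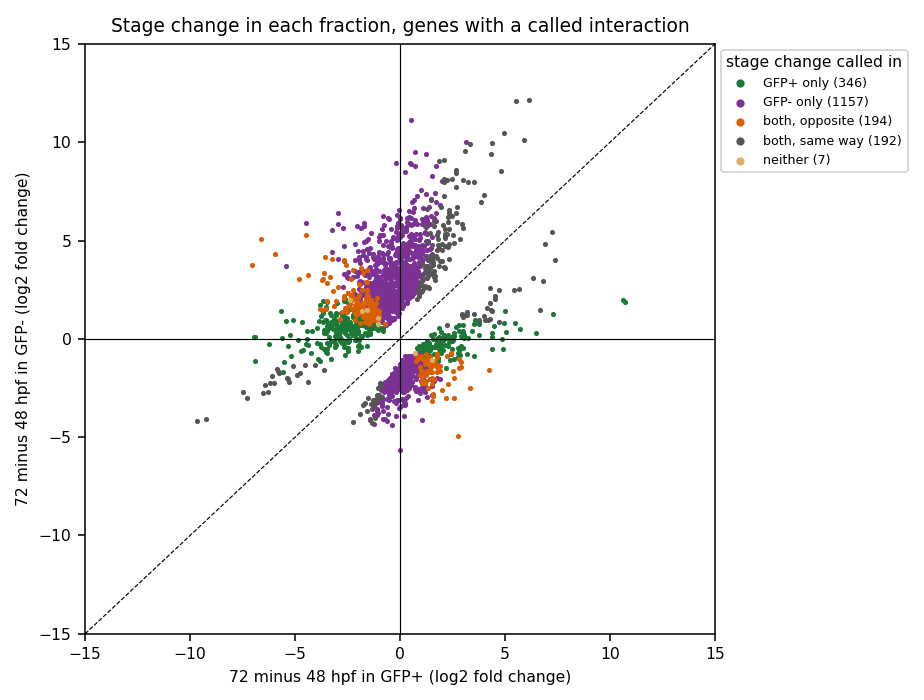
Each point is 1 of the 1896 genes with a called interaction, with its log2FC of 72 over 48 hpf in GFP- cells on the vertical axis and in GFP+ cells on the horizontal axis. Colours give the fraction in which that change was called, and the 1157 genes called in GFP- only (purple) form the upright bands above and below 0.

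The number of calls depended on the libraries and on the block. The main fit had no block and did not pair the fractions by replicate number. With the replicate number as a block within each stage, 1036 genes were called higher and 1536 lower, and 251 reversed. Without replicate 3 of GFP- at 72 hpf the counts were 1461 higher and 2103 lower, and without replicate 1 of that group 980 higher and 1675 lower. Calls fell to 286 to 355 higher and 664 to 871 lower without any 1 of the GFP+ libraries at 72 hpf, without replicate 1 or 3 of GFP+ or without replicate 1 or 3 of GFP- at 48 hpf, and to 379 higher without replicate 2 of GFP- at 72 hpf. Genes called higher made up 30.2% of all calls, 15.1% with library totals in place of TMM and 40.3% with the block within each stage.

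Most of the liver list lost its GFP+ enrichment. The liver makes most plasma proteins, among them fibrinogen, transferrin, apolipoproteins and coagulation factors. Of 36 tested liver genes, 26 (72.2%) had a lower interaction and none a higher one, beside 5.7% and 2.47% of all genes, and the median interaction was -4.65. All 26 belonged to the class with lost GFP+ enrichment. In each of them the larger change was in GFP- cells. The change was called in GFP- cells only for 21 of them and in both fractions the same way for 5. The summed CPM of the list was 3898 to 5112 in GFP+ and 3056 to 7218 in GFP- libraries at 72 hpf, against 1089 to 4165 in GFP+ and 74.8 to 148 in GFP- libraries at 48 hpf. The GFP- libraries at 48 hpf lay apart from the 3 other groups, which overlapped. Leaving out 1 library gave 23 to 28 called members.

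*uox* (ENSDARG00000007024), urate oxidase of purine breakdown, had 110.4, 78.7 and 156 CPM in the GFP+ and 291, 99.3 and 86.8 CPM in the GFP- libraries at 72 hpf, against 109, 12.4 and 54.1 CPM in the GFP+ and 1.26, 0.987 and 0.231 CPM in the GFP- libraries at 48 hpf. It was low only in GFP- cells at 48 hpf, and the other groups overlapped. Its interaction was -6.59 (SE 1.1, padj = 0.0052), and it rose in GFP- cells by 7.57 (padj = 0.00014). *apoa2* (ENSDARG00000015866), an apolipoprotein of plasma lipoproteins, had 1585, 1678 and 1872 CPM in the GFP+ and 4467, 1392 and 1106 CPM in the GFP- libraries at 72 hpf, against 1114, 266 and 791 CPM in the GFP+ and 13, 23 and 6.82 CPM in the GFP- libraries at 48 hpf. Every GFP- library at 48 hpf lay below every other library, and the interaction was -6.1 (SE 0.92, padj = 0.0032). For *fgg* (ENSDARG00000037281), the gamma chain of fibrinogen, the values were 105, 98.6 and 95.9 CPM in the GFP+ and 112, 67.8 and 59.3 CPM in the GFP- libraries at 72 hpf, against 125, 33.3 and 127 CPM in the GFP+ and 1.08, 2.66 and 0.56 CPM in the GFP- libraries at 48 hpf. The 3 groups other than GFP- at 48 hpf overlapped again, and the interaction was -5.72 (SE 0.82, padj = 0.0028). *hamp* (ENSDARG00000102175), which encodes the iron hormone hepcidin and was not on the list, had 153, 91.8 and 129 CPM in the GFP+ and 459.9, 95 and 59 CPM in the GFP- libraries at 72 hpf, against 16.2, 8 and 12.7 CPM in the GFP+ and 0.0514, 0.466 and 0.0988 CPM in the GFP- libraries at 48 hpf. Here GFP+ cells rose as well, by 3.34 (padj = 0.0075), but GFP- cells rose by 9.92 (padj = 5.6e-05), and the interaction was -6.58 (SE 1.12, padj = 0.0059). The lowest GFP- libraries at 48 hpf were near the floor of 3 counts for *hamp*, so that the size of its interaction is uncertain. *cbln11* (ENSDARG00000086654) had 21, 10.6 and 13.8 CPM in the GFP+ and 70.9, 14.1 and 8.61 CPM in the GFP- libraries at 72 hpf, against 28.8, 11 and 24.7 CPM in the GFP+ and 0.0771, 0.877 and 0.395 CPM in the GFP- libraries at 48 hpf, low in GFP- at 48 hpf alone, with an interaction of -6.61 (SE 1.18, padj = 0.0071).

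Complement and haemostasis genes outside fibrinogen followed, with 9 of 30 (30.0%) called lower, none higher and a median interaction of -1.59. All 9 lost a GFP+ enrichment. Without replicate 2 of GFP+ at 72 hpf or replicate 1 of GFP+ at 48 hpf, 5 were called. *cfb* (ENSDARG00000055278), complement factor B, had 44.1, 52.4 and 68.3 CPM in the GFP+ and 16.7, 34.6 and 41.9 CPM in the GFP- libraries at 72 hpf, against 63, 9.87 and 35.9 CPM in the GFP+ and 0.951, 0.631 and 0.0329 CPM in the GFP- libraries at 48 hpf. Only the GFP- libraries at 48 hpf were near 0, and the interaction was -5.22 (SE 1.05, padj = 0.012). *serpinf2a* (ENSDARG00000076448), which encodes the plasmin inhibitor antiplasmin, had an interaction of -5.76 (SE 0.95, padj = 0.0050) and rose in both fractions, by 2.67 in GFP+ and 8.44 in GFP- cells. *c8g* (ENSDARG00000032098), a chain of complement component 8, had an interaction of -5.59 (SE 0.88, padj = 0.0039).

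Of 39 tested genes of glycolysis and gluconeogenesis, 16 (41.0%) had a lower interaction, and 15 of the 16 lost a GFP+ enrichment. The larger change was in GFP- cells for all 16. Several of the leading members are the forms that liver and kidney use. *g6pca.1* (ENSDARG00000031616), a glucose 6-phosphatase that releases glucose, had 8.69, 6.22 and 6.68 CPM in the GFP+ and 11, 4.58 and 3.2 CPM in the GFP- libraries at 72 hpf, against 9.18, 3.88 and 10.5 CPM in the GFP+ and 0.0771, 0.219 and 0.0659 CPM in the GFP- libraries at 48 hpf. The 3 other groups overlapped and the GFP- libraries at 48 hpf were below them all. The interaction was -5.75 (SE 0.82, padj = 0.0028). The lowest GFP- libraries at 48 hpf were near the floor of 3 counts for *g6pca.1*, so that the size of its interaction is uncertain. *fbp1b* (ENSDARG00000020364), the fructose-bisphosphatase of gluconeogenesis, had an interaction of -5.38 (SE 0.62, padj = 0.0018), and *pklr* (ENSDARG00000042010), the pyruvate kinase of liver and red cells, -4.46 (SE 0.6, padj = 0.0024). *gapdh* (ENSDARG00000043457), a core glycolytic dehydrogenase, had 657, 637 and 426 CPM in the GFP+ and 531, 301 and 184 CPM in the GFP- libraries at 72 hpf, against 549.7, 415 and 745 CPM in the GFP+ and 10.6, 31.9 and 8.66 CPM in the GFP- libraries at 48 hpf. The GFP- libraries at 48 hpf lay below every other library of *gapdh*, and its interaction was -4.3 (SE 0.74, padj = 0.0059). Leaving out 1 library gave 9 to 17 called members, with 9 without replicate 2 of GFP+ at 72 hpf or replicate 3 of GFP+ at 48 hpf and 10 without replicate 1 of GFP+, or replicate 1 or 3 of GFP-, at 48 hpf.

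The GFP+ fraction also lost part of its lead in sarcomere genes, which encode the contractile filaments. Of 23 tested members, 12 (52.2%) had a lower interaction, 7 of which lost the GFP+ enrichment, 4 kept it at a smaller size and 1 reversed. Lost means only that the difference was no longer called at 72 hpf: in these 7 genes it was still 0.2 to 1.82 in favour of GFP+. At 72 hpf 13 of the 23 were higher in GFP+, against all 23 at 48 hpf. The median log2FC of GFP+ over GFP- was 1.91 at 72 hpf and 4.36 at 48 hpf. Between the stages the median change of the list was -0.69 in GFP+ cells and 1.94 in GFP- cells. *myl7* (ENSDARG00000019096), the regulatory myosin light chain of cardiomyocytes, had 513, 798 and 435 CPM in the GFP+ and 330.0, 114 and 51.9 CPM in the GFP- libraries at 72 hpf, against 654, 709 and 1329.9 CPM in the GFP+ and 12.5, 35.9 and 6.59 CPM in the GFP- libraries at 48 hpf. Its GFP+ libraries overlapped between the stages, whereas the GFP- libraries at 72 hpf all lay above those at 48 hpf. At 72 hpf all its GFP+ libraries still lay above its GFP- libraries, by 1.82 (padj = 0.091). Its interaction was -3.79 (SE 0.97, padj = 0.032), and leaving out any 1 of 7 libraries, all of GFP+ at 72 hpf, replicates 1 and 3 of GFP+ or replicates 1 and 3 of GFP- at 48 hpf, ended the call, at padj 0.052 to 0.087. *tcap* (ENSDARG00000007344), the titin cap protein of the Z disc, had 2.93, 3.55 and 3.48 CPM in the GFP+ and 27.2, 7.11 and 6.67 CPM in the GFP- libraries at 72 hpf, against 6.18, 2.61 and 7.33 CPM in the GFP+ and 0.257, 0.384 and 0.659 CPM in the GFP- libraries at 48 hpf. It was higher in GFP- than in GFP+ libraries at 72 hpf and the other way at 48 hpf without overlap, with an interaction of -5.66 (SE 0.85, padj = 0.0032). This list was sensitive to single libraries. It had 5, 5 and 2 calls without replicates 1, 2 and 3 of GFP+ at 72 hpf, 7 and 1 without replicates 1 and 3 of GFP+ at 48 hpf, 2 and 3 without replicates 1 and 3 of GFP- at 48 hpf, and at most 16 otherwise.

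Skeletal muscle genes also moved towards the GFP- fraction, with 19 of 44 (43.2%) called lower and 1 higher, and leaving out 1 library gave 16 to 21 called lower. Of the 19, 7 lost a GFP+ enrichment, 5 gained a GFP- enrichment and 5 reversed to lower in GFP+. *acta1b* (ENSDARG00000055618), a skeletal alpha-actin, had 265, 199 and 192 CPM in the GFP+ and 158, 173 and 84.1 CPM in the GFP- libraries at 72 hpf, against 186, 312 and 427 CPM in the GFP+ and 3.06, 21.2 and 3.89 CPM in the GFP- libraries at 48 hpf. The GFP- libraries at 48 hpf were the lowest, and the interaction was -4.38 (SE 0.9, padj = 0.012). *myf5* (ENSDARG00000007277), a transcription factor of muscle precursors, had 0, 0.0192 and 0.277 CPM in the GFP+ and 1.86, 1.11 and 0.681 CPM in the GFP- libraries at 72 hpf, against 5.37, 3 and 8.99 CPM in the GFP+ and 1.03, 0.877 and 2.4 CPM in the GFP- libraries at 48 hpf. It was near 0 in GFP+ at 72 hpf and highest in GFP+ at 48 hpf, so that here the GFP+ side moved, falling by 6.25 (padj = 0.0012), and the interaction was -5.98 (SE 1.25, padj = 0.014). The GFP+ libraries at 72 hpf were near the floor of 3 counts for *myf5*, so that the sizes of its fall and interaction are uncertain. In *tnni2a.4* (ENSDARG00000029069), a fast troponin I, both sides moved and the interaction was -7.31 (SE 1.33, padj = 0.0077). The summed CPM of the 49 genes listed was 919 to 1812 in GFP+ and 1884 to 4192 in GFP- libraries at 72 hpf, against 1153 to 1649 in GFP+ and 251 to 351 in GFP- libraries at 48 hpf. How far skeletal or pharyngeal muscle cells took part was not tested.

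Of 39 tested keratin and epidermal genes, 10 (25.6%) had a lower interaction. Of the 39, 19 were called higher in GFP+ than in GFP- cells at 72 hpf and 36 at 48 hpf, beside 6.22% and 14.6% of all genes. *epcam* (ENSDARG00000040534), an adhesion molecule of epithelia, had 286, 278 and 186 CPM in the GFP+ and 144, 65 and 34.9 CPM in the GFP- libraries at 72 hpf, against 376, 189 and 392 CPM in the GFP+ and 11.3, 10.2 and 17.1 CPM in the GFP- libraries at 48 hpf. GFP+ libraries lay above GFP- libraries at both stages. The interaction was -3.01 (SE 0.67, padj = 0.017), and its padj was 0.052 without replicate 1 of GFP- at 48 hpf. *krt91* (ENSDARG00000036830), a keratin, had an interaction of -6.05 (SE 1.18, padj = 0.010), with 1 GFP+ library at 48 hpf far above the other 2 (210.1, 17.9 and 23.6 CPM), and it was not called by DESeq2's Wald test. The list had 3 to 5 calls without any 1 of the GFP+ libraries at 72 hpf, replicates 1 or 3 of GFP+ or replicates 1 or 2 of GFP- at 48 hpf, and at most 15 otherwise. The trapped reporter uses a *krt4* promoter. *krt4* itself had 762, 1429 and 1171 CPM in the GFP+ and 143, 173 and 107 CPM in the GFP- libraries at 72 hpf, against 3159, 1339 and 2431 CPM in the GFP+ and 58.3, 38.2 and 105 CPM in the GFP- libraries at 48 hpf. Its GFP+ libraries were above its GFP- libraries at both stages, and its interaction was -2.11 (padj = 0.049), and padj was 0.073 to 0.13 without any 1 of the GFP+ libraries or replicate 2 of GFP- at 72 hpf, or replicate 1 or 3 of GFP+ or replicate 1 or 2 of GFP- at 48 hpf. It was also not called with library totals, without a filter or with a replicate block shared by the stages, at padj 0.054 to 0.058.

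*acta2* (ENSDARG00000045180), smooth muscle alpha-actin, had 1198, 710.5 and 1242 CPM in the GFP+ and 1619, 1372 and 978 CPM in the GFP- libraries at 72 hpf, against 40.1, 39.2 and 79.5 CPM in the GFP+ and 1.46, 3.23 and 1.15 CPM in the GFP- libraries at 48 hpf. Both fractions lay far above their 48 hpf level at 72 hpf, where they overlapped. It rose by 4.31 in GFP+ and by 9.4 in GFP- cells, and the interaction was -5.09 (SE 0.64, padj = 0.0018). *tagln* (ENSDARG00000045408), which encodes the actin-binding protein transgelin, had 234, 98.3 and 160.5 CPM in the GFP+ and 1179.5, 240.0 and 143 CPM in the GFP- libraries at 72 hpf, against 5.29, 1.89 and 3.65 CPM in the GFP+ and 0.129, 0.0548 and 0.165 CPM in the GFP- libraries at 48 hpf. Replicate 1 of GFP- at 72 hpf was the highest library, the fractions overlapped at 72 hpf, and the interaction was -6.6 (SE 1.12, padj = 0.0056). Without that library it was -5.13. The GFP- libraries at 48 hpf were near the floor of 3 counts for *tagln*, so that the size of its interaction is uncertain. Within the same list of 25 genes of bulbus smooth muscle and elastic fibre, 6 (24.0%) were called lower, all with a lost GFP+ enrichment. Another 2 (8%) were called higher, both with an enlarged GFP+ enrichment. The median interaction of the list was -0.16. At 72 hpf its summed CPM was 12217 to 14879 in GFP+ and 2639 to 4796 in GFP- libraries. At 48 hpf the sums were 815 to 1150 in GFP+ and 223 to 486 in GFP- libraries. Members called higher in GFP+ than in GFP- cells numbered 7 at 72 hpf and 13 at 48 hpf. *fbln5* (ENSDARG00000039273), the elastic fibre protein fibulin 5, had 5839, 5729.8 and 4212 CPM in the GFP+ and 251, 366 and 235 CPM in the GFP- libraries at 72 hpf, against 45.6, 52.2 and 33.8 CPM in the GFP+ and 13.5, 9.92 and 6.19 CPM in the GFP- libraries at 48 hpf. The fractions were apart at both stages and further apart at 72 hpf, with an interaction of 2.06 (SE 0.48, padj = 0.021), and without replicate 1 or 2 of GFP+ at 72 hpf, replicate 1 or 3 of GFP+ or replicate 1 of GFP- at 48 hpf its padj was 0.054 to 0.063. *elnb*, the bulbus elastin, gave 3 counts or fewer in each 48 hpf library, so that no interaction is given for it. Without any 1 of the GFP+ libraries at 72 hpf, replicate 3 of GFP+ or replicate 1 or 3 of GFP- at 48 hpf, 2 to 3 members were called lower. No member was called higher without replicate 1 or 2 of GFP+ at 72 hpf, replicate 1 or 3 of GFP+ or replicate 1 of GFP- at 48 hpf, and 1 without the remaining libraries of 48 hpf.

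The 118 genes with a gained GFP+ enrichment were led by genes that rose in the GFP+ cells. *penka* (ENSDARG00000004869), proenkephalin, the precursor of enkephalin peptides, had 25.2, 58 and 11.8 CPM in the GFP+ and 2.88, 5.56 and 1.33 CPM in the GFP- libraries at 72 hpf, against 1.53, 0.984 and 0.354 CPM in the GFP+ and 1.46, 3.67 and 2.5 CPM in the GFP- libraries at 48 hpf. All GFP+ libraries at 72 hpf lay above all others, and the interaction was 4.66 (SE 0.97, padj = 0.013). *flnb* (ENSDARG00000092281), the actin crosslinker filamin B, had 33.7, 46.1 and 43.1 CPM in the GFP+ and 5.68, 4.08 and 4.83 CPM in the GFP- libraries at 72 hpf, against 1.31, 1.7 and 1.7 CPM in the GFP+ and 2.03, 2.03 and 3.89 CPM in the GFP- libraries at 48 hpf. GFP+ libraries at 72 hpf stood alone, GFP- cells rose by 0.87 only, and the interaction was 3.83 (SE 0.45, padj = 0.0018). *tnfsf12* (ENSDARG00000069376), a cytokine of the tumour necrosis factor family, had 206, 245 and 181 CPM in the GFP+ and 11.4, 18.9 and 11.7 CPM in the GFP- libraries at 72 hpf, against 0.684, 1.2 and 1.98 CPM in the GFP+ and 1.13, 1.1 and 0.395 CPM in the GFP- libraries at 48 hpf. It rose in both fractions, by 7.37 in GFP+ and 3.98 in GFP- cells, and the interaction was 3.39 (SE 0.62, padj = 0.0077). *FRMD1* (ENSDARG00000078741) had 65.3, 64.3 and 67.9 CPM in the GFP+ and 8.05, 11.2 and 10.9 CPM in the GFP- libraries at 72 hpf, against 13.9, 15.8 and 22.8 CPM in the GFP+ and 28.7, 25.5 and 25.4 CPM in the GFP- libraries at 48 hpf. Its fractions changed in opposite directions, up in GFP+ and down in GFP-, and the interaction was 3.31 (SE 0.36, padj = 0.0015).

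*angptl2a* (ENSDARG00000024030), a secreted angiopoietin-like protein, had 413, 711 and 529 CPM in the GFP+ and 20.8, 32 and 33.6 CPM in the GFP- libraries at 72 hpf, against 30.0, 40.6 and 12.2 CPM in the GFP+ and 13, 10.2 and 7.9 CPM in the GFP- libraries at 48 hpf. It was higher in GFP+ by 4.26 at 72 hpf and by 1.41 at 48 hpf, with an interaction of 2.84 (SE 0.58, padj = 0.012). *cx43.4* (ENSDARG00000007099), a connexin that forms gap junction channels, had 289.7, 260.3 and 228 CPM in the GFP+ and 80.6, 94.6 and 85.5 CPM in the GFP- libraries at 72 hpf, against 253, 274 and 296 CPM in the GFP+ and 292, 239 and 362 CPM in the GFP- libraries at 48 hpf. Here the GFP+ libraries overlapped between the stages and the GFP- libraries fell by 1.78 (padj = 0.00028), so that an enrichment was gained from the GFP- side. Its interaction was 1.69 (SE 0.35, padj = 0.012), and padj was 0.051 with library totals. Another connexin went the other way: *cx32.3* (ENSDARG00000041787) had 25.4, 23.8 and 21.4 CPM in the GFP+ and 17.4, 14 and 11.7 CPM in the GFP- libraries at 72 hpf, against 11.5, 2.61 and 9.03 CPM in the GFP+ and 0.0514, 0.439 and 0.165 CPM in the GFP- libraries at 48 hpf, with the GFP- libraries at 48 hpf near 0 and an interaction of -4.4 (SE 0.82, padj = 0.0086). Of 27 connexins tested, 1 (3.7%) was called higher and 3 (11.1%) lower, beside 2.47% and 5.7% of all genes. Only 1 was called lower without replicate 1 or 2 of GFP+ or replicate 2 of GFP- at 72 hpf, or replicate 3 of GFP+ or replicate 1 or 3 of GFP- at 48 hpf.

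**Figure D3:**
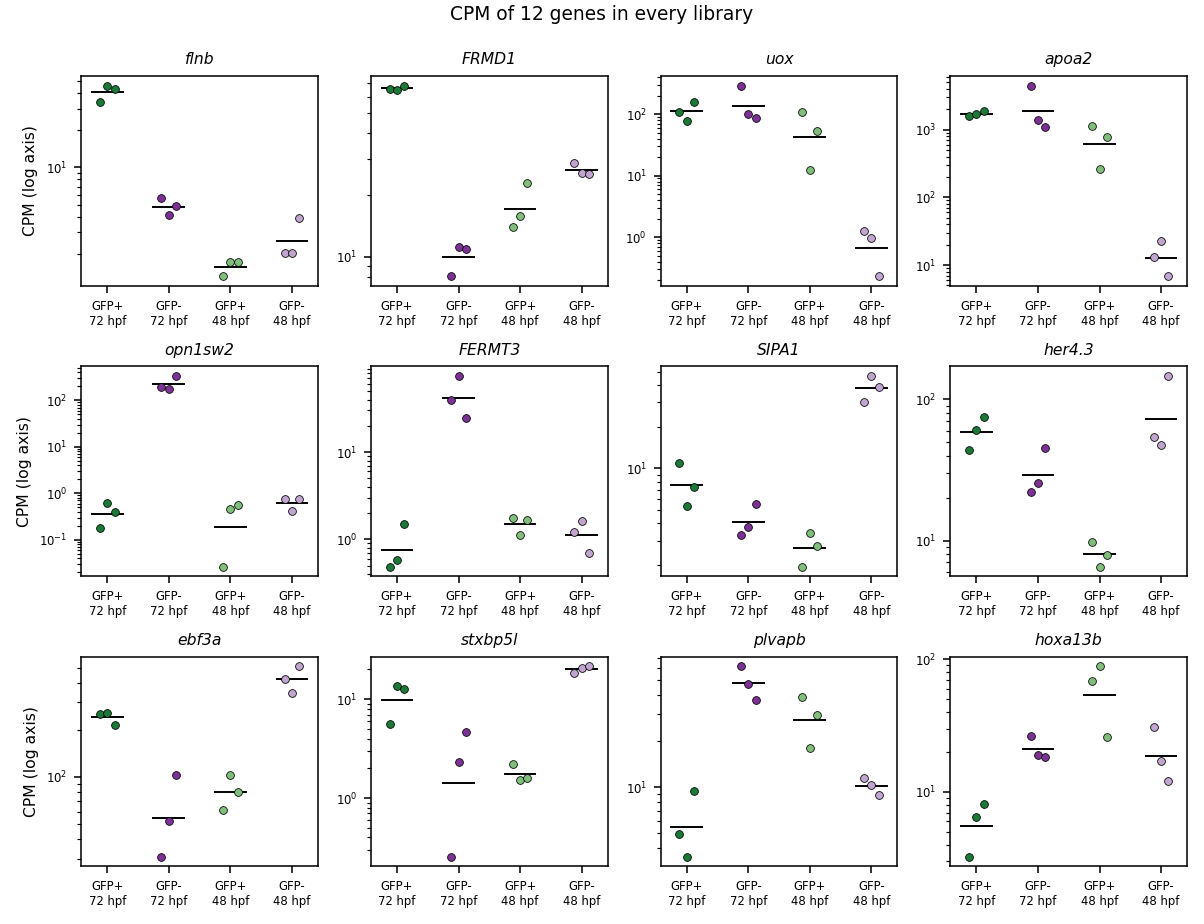
CPM of 12 genes in each of the 12 libraries on logarithmic axes, with GFP+ left of GFP- and 72 hpf left of 48 hpf, and a line at the geometric mean of each group. GFP+ at 72 hpf stands alone for *flnb*, GFP- at 48 hpf for *uox*, *apoa2* and *SIPA1*, and GFP- at 72 hpf for *opn1sw2* and *FERMT3*.

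Genes of photoreceptors, blood cells and islet hormones were among those that gained a GFP- enrichment. Of 55 tested photoreceptor and phototransduction genes, 17 (30.9%) were called lower and none higher, with a median interaction of -2.49. Of the 17, 9 gained and 8 enlarged a GFP- enrichment, and the change was called in GFP- cells only for 13. *opn1sw2* (ENSDARG00000017274), a short wavelength cone opsin, had 0.181, 0.614 and 0.396 CPM in the GFP+ and 189, 173 and 336 CPM in the GFP- libraries at 72 hpf, against 0.0263, 0.452 and 0.566 CPM in the GFP+ and 0.745, 0.411 and 0.757 CPM in the GFP- libraries at 48 hpf. It was near 0 in 3 groups and high in every GFP- library at 72 hpf. The interaction was -8.29 (SE 0.98, padj = 0.0018), and that of *OPN1SW* (ENSDARG00000045677), another short wavelength opsin, was -8.79 (SE 0.93, padj = 0.0013). *GNAT2* (ENSDARG00000042529), the transducin subunit of cones, had 1.7, 2 and 1.23 CPM in the GFP+ and 33.8, 61.1 and 122 CPM in the GFP- libraries at 72 hpf, against 0.579, 0.638 and 4.35 CPM in the GFP+ and 0.72, 0.576 and 2.8 CPM in the GFP- libraries at 48 hpf. Only GFP- at 72 hpf was high, and the interaction was -5.89 (SE 1.16, padj = 0.011). *pde6ha* (ENSDARG00000102558), the inhibitory subunit of the cone phosphodiesterase, had an interaction of -7.59 (SE 1.5, padj = 0.011), which was -4.77 (padj = 0.064) without replicate 1 of GFP+ at 48 hpf. Cone opsin copies such as *opn1lw1* and *opn1lw2* share sequence, and their division of reads is uncertain. Without replicate 1 of GFP+ at 72 hpf or replicate 3 of GFP+ at 48 hpf 11 of the list were called, and without replicate 1 of GFP- at 48 hpf 9. The summed CPM of 6 photoreceptor markers was 3 to 5.7 in GFP+ and 376 to 967 in GFP- libraries at 72 hpf, against 2.57 to 14.2 in GFP+ and at most 67.6 in GFP- libraries at 48 hpf, where *rho* was at 0 in GFP+. How far eye tissue in the preparation took part was not tested.

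Of 30 lens and eye field genes, 6 (20.0%) were called lower and in all 6 the larger change was a fall in the GFP+ cells. *rx3* (ENSDARG00000052893), a homeobox factor of the early eye, had 0.181, 0.134 and 0.356 CPM in the GFP+ and 15.8, 9.11 and 13.8 CPM in the GFP- libraries at 72 hpf, against 2.1, 3.83 and 3.36 CPM in the GFP+ and 4.65, 6.09 and 9.78 CPM in the GFP- libraries at 48 hpf. GFP+ at 72 hpf was near 0 and lay below GFP+ at 48 hpf, and the interaction was -4.77 (SE 0.62, padj = 0.0020). *SIX3* (ENSDARG00000054879), a forebrain and eye homeobox factor, had 0.38, 0.0384 and 0.475 CPM in the GFP+ and 43.5, 18.8 and 48.9 CPM in the GFP- libraries at 72 hpf, against 17.3, 9.79 and 23 CPM in the GFP+ and 141, 70.8 and 113 CPM in the GFP- libraries at 48 hpf. Both fractions fell, by 5.88 in GFP+ and by 1.55 in GFP- cells, with an interaction of -4.33 (SE 0.85, padj = 0.011). In neuron and synapse genes 6 of 56 (10.7%) were called lower and 3 (5.36%) higher, beside 5.7% and 2.47% of all genes. In the 6 called lower the larger change was again in GFP+ cells. With the block within each stage 11 were lower and 6 higher. Without replicate 1 of GFP- at 72 hpf 10 were lower, without replicate 1 of GFP+ at 48 hpf 3, and without replicate 3 of GFP- at 72 hpf 8 were higher, against 1 without any library other than replicate 1 of GFP- at 72 hpf and replicate 2 of GFP- at 48 hpf. The list of glia genes moved both ways, with 4 of 20 (20.0%) called lower and 3 (15%) higher, and leaving out 1 library gave 2 to 5 lower and 1 to 4 higher. *FABP7* (ENSDARG00000007697), the fatty acid binding protein of radial glia, had 6.61, 6.16 and 3.52 CPM in the GFP+ and 2254, 261 and 679 CPM in the GFP- libraries at 72 hpf, against 122.6, 76.6 and 160.2 CPM in the GFP+ and 1527, 929.8 and 1343 CPM in the GFP- libraries at 48 hpf. GFP+ fell by 4.46 while the GFP- change was -0.25 (padj = 0.75), and the interaction was -4.21 (SE 0.88, padj = 0.013). *sox19a* (ENSDARG00000010770), an SRY-box factor of neural progenitors, had 26.5, 14.2 and 8.74 CPM in the GFP+ and 5.25, 7.46 and 9.06 CPM in the GFP- libraries at 72 hpf, against 19.8, 27.9 and 29.6 CPM in the GFP+ and 63.5, 108 and 223 CPM in the GFP- libraries at 48 hpf. GFP- at 48 hpf was the high group, and the interaction was 3.53 (SE 0.68, padj = 0.0099).

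Of 40 leukocyte and thrombocyte genes, 13 (32.5%) were called lower and none higher. All 13 gained a GFP- enrichment, and without replicate 3 of GFP- at 72 hpf 21 were called. *FERMT3* (ENSDARG00000030938), the kindlin that activates integrins in blood cells, had 0.489, 0.576 and 1.5 CPM in the GFP+ and 39.9, 74.6 and 24.3 CPM in the GFP- libraries at 72 hpf, against 1.74, 1.14 and 1.66 CPM in the GFP+ and 1.21, 1.64 and 0.692 CPM in the GFP- libraries at 48 hpf. GFP- at 72 hpf was the only high group and the interaction was -6.16 (SE 0.75, padj = 0.0018). *mpl* (ENSDARG00000039222), the thrombopoietin receptor, had 0.0543, 0.211 and 0.435 CPM in the GFP+ and 3.22, 27.2 and 10.9 CPM in the GFP- libraries at 72 hpf, against 0.631, 0.665 and 0.708 CPM in the GFP+ and 0.822, 1.34 and 0.0988 CPM in the GFP- libraries at 48 hpf. Its GFP- libraries at 72 hpf ranged widely but all lay above the rest, with an interaction of -5.81 (SE 1.26, padj = 0.016). *CORO1A* (ENSDARG00000054610), an actin regulator of leukocytes, had 0.96, 0.461 and 1.54 CPM in the GFP+ and 35.2, 41.9 and 15 CPM in the GFP- libraries at 72 hpf, against 6.36, 8.83 and 10.5 CPM in the GFP+ and 7.71, 16.8 and 4.74 CPM in the GFP- libraries at 48 hpf. GFP+ cells fell by 3.15 and GFP- cells rose by 1.65, and the interaction was -4.8 (SE 0.78, padj = 0.0046). Of 28 red cell genes other than globins, 9 (32.1%) were called lower, and 4 to 5 without replicate 1 of GFP+ or replicate 1 or 2 of GFP- at 48 hpf. *alas2* (ENSDARG00000038643), the erythroid enzyme that begins haem synthesis, had 0.453, 0.71 and 0.791 CPM in the GFP+ and 147, 161 and 158 CPM in the GFP- libraries at 72 hpf, against 1.13, 2.63 and 1.38 CPM in the GFP+ and 40.6, 41.9 and 63.1 CPM in the GFP- libraries at 48 hpf. GFP- lay above GFP+ at both stages, further at 72 hpf, and the interaction was -3.09 (SE 0.5, padj = 0.0043). *LMO2* (ENSDARG00000095019), a blood and endothelial transcription cofactor, had an interaction of -3.38 (SE 0.58, padj = 0.0059). No globin gene of 7 was called by edgeR's test, by DESeq2 or limma voom, or at an unadjusted p below 0.05, and the median interaction was -2.95. This median was -0.8 without replicate 1 of GFP- at 72 hpf, -0.18 without replicate 2 of GFP+ at 48 hpf and -1 with the block within each stage. *hbae3*, an embryonic alpha-globin, had 26878, 2958 and 2658 CPM in GFP- libraries at 72 hpf, and globin copies share reads.

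Of 31 tested endothelial genes, 9 (29.0%) were called lower, 7 of them with a gained GFP- enrichment, and the median change between the stages was -1 in GFP+ and 0.76 in GFP- cells. *plvapb* (ENSDARG00000045003), a protein of the diaphragms of endothelial fenestrae, had 4.93, 3.51 and 9.45 CPM in the GFP+ and 61.5, 47.2 and 37.2 CPM in the GFP- libraries at 72 hpf, against 38.6, 18.1 and 29.6 CPM in the GFP+ and 11.4, 10.3 and 8.89 CPM in the GFP- libraries at 48 hpf. GFP- was above GFP+ at 72 hpf and below it at 48 hpf, without overlap at either stage. Its interaction was -4.53 (SE 0.56, padj = 0.0018). *aplnrb* (ENSDARG00000036670), an apelin receptor of endothelium, had 1.85, 1.29 and 3.68 CPM in the GFP+ and 23.5, 26.4 and 26.1 CPM in the GFP- libraries at 72 hpf, against 16.4, 16.4 and 18.1 CPM in the GFP+ and 22.3, 21 and 21.2 CPM in the GFP- libraries at 48 hpf. GFP+ at 72 hpf lay far below the 3 other groups, and the interaction was -3.15 (SE 0.47, padj = 0.0031). The general markers *cdh5*, *kdrl* and *TIE1* had interactions of -1.73, -0.88 and -1.23 that did not pass (padj 0.16 to 0.46 by edgeR's test), although *cdh5* passed with the replicate block within each stage, at -1.82 (padj = 0.021). The list had 5 calls without replicate 2 of GFP+ at 72 hpf and 14 without replicate 1 of GFP- at 72 hpf.

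Islet hormones gave some of the largest interactions. *ins* (ENSDARG00000035350), preproinsulin, had 2.44, 0.0576 and 1.42 CPM in the GFP+ and 186, 22.6 and 6.09 CPM in the GFP- libraries at 72 hpf, against 8.07, 3.32 and 18.9 CPM in the GFP+ and 0.0257, 2.17 and 0.329 CPM in the GFP- libraries at 48 hpf. Replicate 1 of GFP- at 72 hpf was the highest library. Its interaction was -9.34 (SE 2.12, padj = 0.019), with padj 0.053 without replicate 3 of GFP+ at 72 hpf and 0.061 without replicate 3 of GFP- at 48 hpf. Without replicate 1 of GFP- at 72 hpf the interaction of *ins* was -7.01. *gcga* (ENSDARG00000079296), proglucagon, had 30.9, 16.6 and 16.1 CPM in the GFP+ and 1845, 134 and 79.3 CPM in the GFP- libraries at 72 hpf, against 63.2, 68.5 and 153 CPM in the GFP+ and 30.5, 27.3 and 15.2 CPM in the GFP- libraries at 48 hpf. Replicate 1 of GFP- at 72 hpf was the highest library by far, and the interaction was -6.98 (SE 1.37, padj = 0.011), and -4.26 without that library. *sst2* (ENSDARG00000014190) and *sst1.2* (ENSDARG00000033161) encode somatostatins. *sst2* had 3.89, 2.28 and 0.593 CPM in the GFP+ and 678, 87.2 and 28.7 CPM in the GFP- libraries at 72 hpf, against 147, 108 and 414 CPM in the GFP+ and 0.18, 22.5 and 0.724 CPM in the GFP- libraries at 48 hpf. Its fraction difference turned round, although 1 GFP- library at 48 hpf was far above the other 2, and the interaction was -11.68 (SE 2.35, padj = 0.012). *sst1.2* had an interaction of -9.76 (SE 2.09, padj = 0.015). Without replicate 1 of GFP- at 72 hpf the interaction was -9.46 for *sst2* and -7.73 for *sst1.2*. The exocrine pancreas and gut list holds 3 of these 4 genes, *ins*, *gcga* and *sst2*, and all 3 are among its calls. *prss1*, another called member, kept its call in 2 of the 12 fits that left out 1 library. The whole list had 5 of 30 (16.7%) called lower, beside 5.7% of all genes. It had 10 such calls without replicate 3 of GFP- at 72 hpf, and 3 without replicate 3 of GFP+ at 72 hpf or of GFP- at 48 hpf. The summed CPM of 4 exocrine markers was 39.2 to 194 in GFP+ and 12.1 to 1713 in GFP- libraries at 72 hpf, against 6.24 to 15.4 in GFP+ and 1.25 to 9.06 in GFP- libraries at 48 hpf. The part of pancreatic tissue in these results was not tested.

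**Figure D4:**
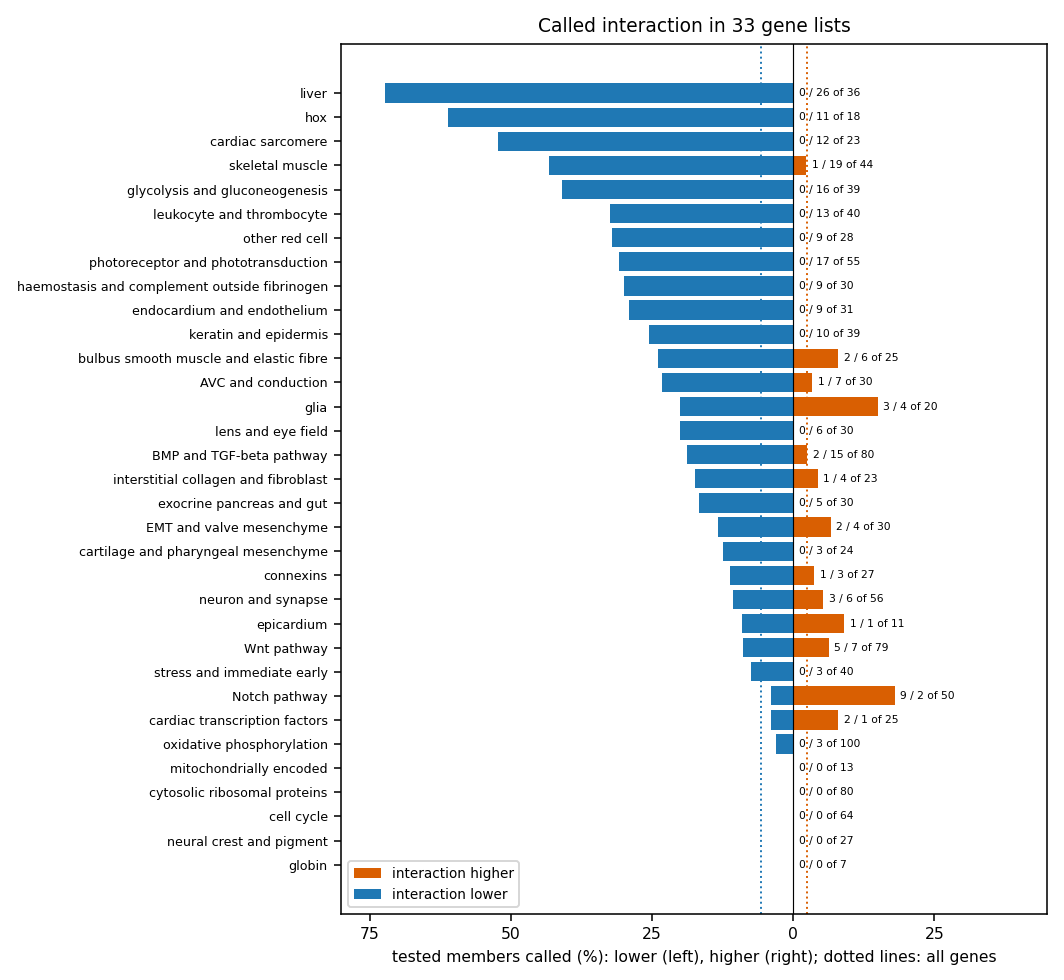
Share of tested members of each of 33 gene lists with a called interaction, lower to the left and higher to the right, with the numbers called higher and lower of those tested. Dotted lines give the shares over all genes, 5.7% lower and 2.47% higher. Liver (26 of 36 lower) is at the top, and the Notch list has the most calls to the right (9 of 50).

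*SIPA1* (ENSDARG00000076697), a GTPase activator for Rap proteins that lost a GFP- enrichment, had 10.9, 5.38 and 7.28 CPM in the GFP+ and 3.3, 3.77 and 5.55 CPM in the GFP- libraries at 72 hpf, against 1.95, 3.43 and 2.76 CPM in the GFP+ and 30.1, 46.5 and 38.9 CPM in the GFP- libraries at 48 hpf. GFP- at 48 hpf was the high group. GFP+ cells rose by 1.53 and GFP- cells fell by 3.18, with an interaction of 4.72 (SE 0.5, padj = 0.0013). *RAP1GAP* (ENSDARG00000056554), another Rap GTPase activator, had 7.01, 9.62 and 10.6 CPM in the GFP+ and 0.932, 3.12 and 6.81 CPM in the GFP- libraries at 72 hpf, against 3.37, 2.79 and 4.88 CPM in the GFP+ and 24.8, 28.5 and 31.5 CPM in the GFP- libraries at 48 hpf. Again GFP- at 48 hpf alone was high, and the interaction was 4.24 (SE 0.72, padj = 0.0057). *SOX14* (ENSDARG00000070929), an SRY-box transcription factor, had 3.71, 5.14 and 2.73 CPM in the GFP+ and 5.25, 3.9 and 4.02 CPM in the GFP- libraries at 72 hpf, against 2.31, 0.638 and 2.12 CPM in the GFP+ and 25.5, 19.4 and 40.2 CPM in the GFP- libraries at 48 hpf. It was high in GFP- cells at 48 hpf alone. It fell by 2.7 (padj = 0.00080) in GFP- cells, and the interaction was 3.9 (SE 0.64, padj = 0.0049).

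In the Notch list 9 of 50 members (18%) were called higher and 2 lower, beside 2.47% and 5.7% of all genes, and the median interaction was 0.74. Notch is a receptor that is cleaved on contact with a ligand on the next cell, after which its intracellular part switches on *her* genes. Of the 9, 7 lost a GFP- enrichment. *her4.3* (ENSDARG00000070770), such a target, had 44.2, 60.5 and 74.9 CPM in the GFP+ and 22, 25.6 and 45 CPM in the GFP- libraries at 72 hpf, against 9.84, 6.54 and 7.93 CPM in the GFP+ and 54.6, 47.2 and 147 CPM in the GFP- libraries at 48 hpf. GFP+ rose by 2.88 and GFP- fell by 1.42, and the interaction was 4.31 (SE 0.64, padj = 0.0030). *her4.2* (ENSDARG00000094426) had 172, 211 and 220.0 CPM in the GFP+ and 155, 113 and 217 CPM in the GFP- libraries at 72 hpf, against 90.4, 47.9 and 131 CPM in the GFP+ and 705, 470.4 and 1374 CPM in the GFP- libraries at 48 hpf. Its GFP- libraries at 48 hpf were the highest, and the interaction was 3.56 (SE 0.63, padj = 0.0069). The *her4* genes are near-identical copies in tandem, so that the division of reads among them is uncertain and they are not independent. *jag1a* (ENSDARG00000030289), a Notch ligand, had 15, 25.3 and 26.3 CPM in the GFP+ and 1.69, 8.59 and 11.1 CPM in the GFP- libraries at 72 hpf, against 7.26, 9.36 and 8.46 CPM in the GFP+ and 15, 30.1 and 45.4 CPM in the GFP- libraries at 48 hpf. Its GFP- libraries at 72 hpf all lay below those at 48 hpf. The interaction was 3.47 (SE 0.78, padj = 0.018), and padj was 0.052 without replicate 1 of GFP+ or replicate 3 of GFP- at 48 hpf and 0.067 with library totals. *her7* (ENSDARG00000017917), a segmentation gene, went the other way, with an interaction of -4.41 (SE 0.89, padj = 0.012) from the GFP+ side, where it fell by 4.42. *notch1b*, the endocardial receptor, had an interaction of 0.13 (padj = 0.91) and fell in both fractions, by 2.11 in GFP+ and 2.24 in GFP- cells. The list had 14 calls higher without replicate 1 of GFP- at 72 hpf and 4 without replicate 3 of GFP- at 48 hpf.

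Genes that reversed to higher in GFP+ at 72 hpf changed most often on both sides, with both stage changes called in opposite directions for 34 of 67. *ebf3a* (ENSDARG00000100244), a helix-loop-helix transcription factor, had 252, 256 and 215 CPM in the GFP+ and 30.8, 52.5 and 103 CPM in the GFP- libraries at 72 hpf, against 61.4, 103 and 79.9 CPM in the GFP+ and 426, 347 and 512 CPM in the GFP- libraries at 48 hpf. Within each stage the fractions did not overlap, and their order turned. The interaction was 4.35 (SE 0.56, padj = 0.0021), with a rise of 1.56 in GFP+ and a fall of 2.79 in GFP- cells. *stxbp5l* (ENSDARG00000006383), a syntaxin-binding protein of vesicle release, had 5.65, 13.6 and 12.6 CPM in the GFP+ and 0.254, 2.33 and 4.7 CPM in the GFP- libraries at 72 hpf, against 2.21, 1.54 and 1.59 CPM in the GFP+ and 18.6, 20.8 and 21.6 CPM in the GFP- libraries at 48 hpf. GFP+ was the higher fraction at 72 hpf and GFP- at 48 hpf, with an interaction of 5.59 (SE 0.9, padj = 0.0044). *cnih2* (ENSDARG00000043662), an auxiliary protein of AMPA receptors, had 13.7, 19.1 and 6.8 CPM in the GFP+ and 1.95, 4.4 and 5.48 CPM in the GFP- libraries at 72 hpf, against 3.05, 3.59 and 1.95 CPM in the GFP+ and 39.7, 25.4 and 31.1 CPM in the GFP- libraries at 48 hpf. GFP+ lay above GFP- at 72 hpf and below it at 48 hpf. The interaction was 5.2 (SE 0.64, padj = 0.0018). *DST* (ENSDARG00000101858), the cytoskeletal linker dystonin, had 24.4, 16.6 and 16.2 CPM in the GFP+ and 2.29, 4.67 and 7.73 CPM in the GFP- libraries at 72 hpf, against 7.05, 6.83 and 5.63 CPM in the GFP+ and 31.5, 39.5 and 39.4 CPM in the GFP- libraries at 48 hpf. Its interaction was 4.44 (SE 0.53, padj = 0.0018), with both sides moving. The epicardium list had 1 of 11 members (9.09%) called higher and 1 (9.09%) lower, beside 2.47% and 5.7% of all genes. Its median interaction was 0.2. The lower one gained a GFP- enrichment, and that call was lost in some fits that left out 1 library. The higher one, *bnc2* (ENSDARG00000069989), a zinc finger factor, reversed in the same direction as the genes above. It had 109.5, 109 and 111 CPM in the GFP+ and 15.7, 28.5 and 41.1 CPM in the GFP- libraries at 72 hpf, against 53.4, 52 and 52.8 CPM in the GFP+ and 159, 101 and 106 CPM in the GFP- libraries at 48 hpf. GFP+ was tight within each stage and higher at 72 hpf, GFP- fell by 2.1, and the interaction was 3.16 (SE 0.47, padj = 0.0030). *vim* (ENSDARG00000010008), the intermediate filament protein vimentin, had an interaction of 2.26 (SE 0.46, padj = 0.012), with the change called in GFP- cells only. In its list, epithelial-to-mesenchymal transition and valve mesenchyme, 2 of 30 (6.67%) were called higher and 4 (13.3%) lower. Over all genes the shares were 2.47% and 5.7%. The higher calls were *vim* and *angptl2a*, and *twist3* was among the lower ones. The median interaction of the list was 0.1. Leaving out 1 library gave 2 to 4 higher and 2 to 5 lower.

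Among the 92 genes that reversed to lower in GFP+, 40 changed in GFP- cells only, 31 in both in opposite directions and 20 in GFP+ cells only. *ecrg4a* (ENSDARG00000056087), which encodes a secreted peptide precursor, had 10.3, 12.1 and 27.7 CPM in the GFP+ and 254, 66.4 and 45.7 CPM in the GFP- libraries at 72 hpf, against 8.28, 9.57 and 4.92 CPM in the GFP+ and 2.75, 2.28 and 0.757 CPM in the GFP- libraries at 48 hpf. GFP- was above GFP+ at 72 hpf and below it at 48 hpf, and the interaction was -4.84 (SE 0.94, padj = 0.010). *rprmb* (ENSDARG00000024006), a reprimo family gene of growth arrest, had 5.27, 3.07 and 11.2 CPM in the GFP+ and 69.7, 20.1 and 20.2 CPM in the GFP- libraries at 72 hpf, against 10.7, 2.63 and 4.11 CPM in the GFP+ and 1.34, 1.32 and 1.28 CPM in the GFP- libraries at 48 hpf. It rose in GFP- cells only, by 4.8 (padj = 0.00038), and the interaction was -4.64 (SE 0.91, padj = 0.011). *hsp90aa1.1* (ENSDARG00000010478), a heat shock chaperone used by skeletal muscle, had 11.4, 11.5 and 15.5 CPM in the GFP+ and 31.9, 32.9 and 43.3 CPM in the GFP- libraries at 72 hpf, against 119, 85.1 and 77.5 CPM in the GFP+ and 20.3, 19.2 and 14.7 CPM in the GFP- libraries at 48 hpf. The groups did not overlap within a stage. GFP+ fell by 2.88, GFP- rose by 1.00, and the interaction was -3.88 (SE 0.39, padj = 0.0012). *twist3* (ENSDARG00000019646), a helix-loop-helix factor of mesenchyme, fell by 2.72 (padj = 0.00056) in GFP+ cells and had an interaction of -3.34 (SE 0.52, padj = 0.0037). *BARX1* (ENSDARG00000007407), a homeobox factor of pharyngeal mesenchyme, had an interaction of -3.43 (SE 0.73, padj = 0.015), also from the GFP+ side.

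The *hox* genes, which give position along the body axis and in fins, moved mainly on the GFP+ side. Of 18 tested, 11 (61.1%) were called lower and none higher, and the change was called in GFP+ cells only for 8 of the 11. The median change between the stages was -2.69 in GFP+ and 0.53 in GFP- cells. *hoxa13b* (ENSDARG00000036254) had 3.24, 6.47 and 8.15 CPM in the GFP+ and 26.5, 19.1 and 18.4 CPM in the GFP- libraries at 72 hpf, against 68.9, 88.8 and 26.1 CPM in the GFP+ and 30.7, 17.2 and 12.1 CPM in the GFP- libraries at 48 hpf. GFP- overlapped between the stages and GFP+ did not, falling by 3.37. The interaction was -3.46 (SE 0.69, padj = 0.011). *hoxd13a* (ENSDARG00000059256) had 1.05, 1.27 and 1.86 CPM in the GFP+ and 6.44, 3.47 and 5.72 CPM in the GFP- libraries at 72 hpf, against 14.6, 17 and 6.02 CPM in the GFP+ and 5.11, 3.32 and 2.47 CPM in the GFP- libraries at 48 hpf, with an interaction of -3.69 (SE 0.63, padj = 0.0058), and *hoxa13a* (ENSDARG00000100312) had an interaction of -3.79 (SE 0.82, padj = 0.016). Without replicate 1 or 2 of GFP+ at 72 hpf, replicate 1 or 2 of GFP+ or replicate 2 or 3 of GFP- at 48 hpf, 5 to 7 were called.

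**Figure D5:**
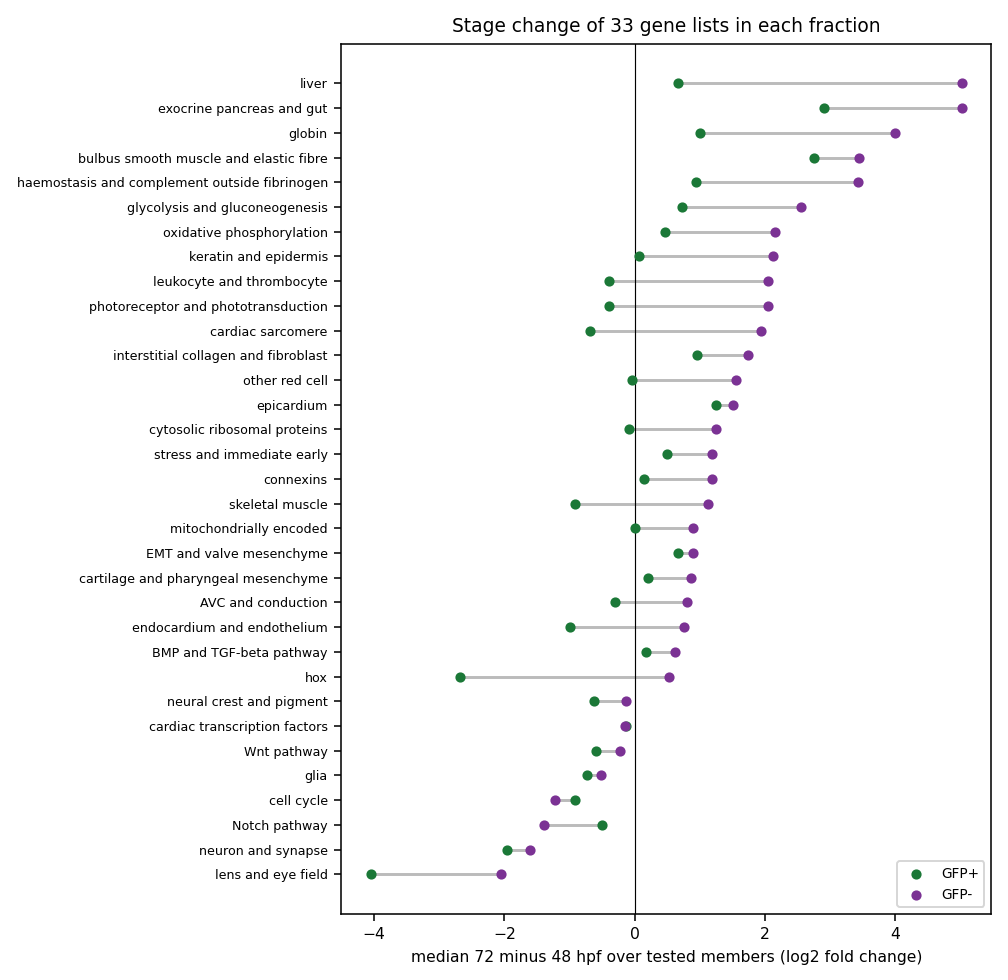
Median log2FC of 72 over 48 hpf over the tested members of 33 gene lists, in GFP+ cells (green) and GFP- cells (purple), joined by a line. The *hox* list lies at -2.69 in GFP+ and 0.53 in GFP-, and the liver list at 0.66 in GFP+ and 5.02 in GFP-.

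In the list of AVC and conduction genes, 7 of 30 (23.3%) were called lower and 1 (3.33%), *cx43.4*, higher, beside 5.7% and 2.47% of all genes. The median log2FC of GFP+ over GFP- was 0.98 at 72 hpf and 1.26 at 48 hpf. Of the 7, 3 lost a GFP+ enrichment, 1 kept it at a smaller size, 2 gained a GFP- enrichment and 1 reversed. The called member *wnt2bb* kept its call in all 12 fits that left out 1 library, and *nppb* in 2. *isl1* (ENSDARG00000004023), a homeobox factor of pacemaker and second heart field cells, had 12.5, 6.7 and 11.4 CPM in the GFP+ and 81.1, 56 and 139 CPM in the GFP- libraries at 72 hpf, against 98.8, 67.6 and 94.3 CPM in the GFP+ and 135, 118 and 119.9 CPM in the GFP- libraries at 48 hpf. GFP+ at 72 hpf alone was low, after a fall of 3.09, and the interaction was -2.66 (SE 0.5, padj = 0.0087). *isl1* is also a member of the neuron and synapse list and is counted among the lower calls there. Among 25 cardiac transcription factors 2 (8.0%) were called higher and 1 (4.0%) lower, beside 2.47% and 5.7% of all genes. The lower one, *nkx2.5* (ENSDARG00000018004), a core cardiac homeobox factor, had 10.8, 13.7 and 11.3 CPM in the GFP+ and 12.5, 7.33 and 5.28 CPM in the GFP- libraries at 72 hpf, against 21.5, 18.9 and 25.1 CPM in the GFP+ and 3.21, 2.08 and 2.47 CPM in the GFP- libraries at 48 hpf. The fractions overlapped at 72 hpf, whereas GFP+ was above GFP- at 48 hpf. It rose in GFP- cells by 1.68 (padj = 0.0019), and the interaction was -2.55 (SE 0.46, padj = 0.0077). Of those called higher, *IRX3* (ENSDARG00000101076), an Iroquois homeobox factor, had 19.9, 18.6 and 13.3 CPM in the GFP+ and 8.39, 8.11 and 12.7 CPM in the GFP- libraries at 72 hpf, against 12.6, 12.3 and 11.8 CPM in the GFP+ and 37.5, 41.1 and 69.6 CPM in the GFP- libraries at 48 hpf. GFP- at 48 hpf was the high group, and the interaction was 2.84 (SE 0.43, padj = 0.0035). The other, *IRX1*, was called in 3 of the 12 fits that left out 1 library, and not with library totals. In those 12 fits 1 to 2 cardiac transcription factors were called higher and 1 to 4 lower. Of the AVC list, the T-box genes *tbx2a*, *tbx2b*, *tbx3a* and *tbx18*, the pacemaker channel gene *hcn4* and the calcium channel gene *cacna1g* were not called by edgeR's test, with interactions of 0.14, 0.99, -1.13, 2.13, -0.16 and 0.91 (padj 0.095 to 0.88). DESeq2's Wald test called *tbx2b* (padj = 0.032) and *tbx18* (padj = 0.039), and with the replicate block within each stage *tbx18* was called at 2.28 (padj = 0.015). The AVC list had 11 calls lower without replicate 1 of GFP- at 72 hpf, and 4 without any 1 of the GFP+ libraries of either stage or without replicate 1 or 3 of GFP- at 48 hpf.

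In the Wnt pathway 5 of 79 members (6.33%) were called higher and 7 (8.86%) lower, beside 2.47% and 5.7% of all genes. The 5 ligands among the calls were all lower, a grouping made after the values were seen. Their share of all tested ligands is not given, so that these calls cannot tell whether ligands as a group moved. *wnt5a*, *wnt4* and *wnt2bb* kept their calls in each of the 12 fits that left out 1 library, *wnt9a* in 6 and *wnt2* in 7. Wnt ligands are secreted proteins that act through Frizzled receptors. *wnt5a* (ENSDARG00000104973) had 2.73, 1.42 and 3.96 CPM in the GFP+ and 24.2, 8.24 and 8 CPM in the GFP- libraries at 72 hpf, against 1.58, 1.06 and 3.36 CPM in the GFP+ and 0.283, 0.0274 and 0.231 CPM in the GFP- libraries at 48 hpf. GFP- rose by 6.19 and passed the GFP+ level, and the interaction was -5.76 (SE 0.99, padj = 0.0060). The lowest GFP- library at 48 hpf was near the floor of 3 counts for *wnt5a*, so that both sizes are uncertain. *wnt4* (ENSDARG00000071208) had 1.81, 2.21 and 2.69 CPM in the GFP+ and 4.4, 5.95 and 4.32 CPM in the GFP- libraries at 72 hpf, against 8.63, 5 and 6.87 CPM in the GFP+ and 1.9, 1.92 and 1.68 CPM in the GFP- libraries at 48 hpf. The fractions were apart in opposite order at the 2 stages, and the interaction was -3.03 (SE 0.44, padj = 0.0030). The 5 called higher were the receptors *fzd10* and *fzd8a*, the transcription factors *lef1* and *tcf7l2*, and *dkk3a*, a secreted Dickkopf family member, named here after their values were seen. With the block within each stage 11 of the list were called lower. Leaving out 1 library gave 5 to 15 called lower, with 15 without replicate 1 of GFP- at 72 hpf. Without any 1 of the GFP+ libraries or replicate 2 of GFP- at 72 hpf, 3 were called higher. The count was also 3 without replicate 1 of GFP+ or replicate 3 of GFP- at 48 hpf.

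In the BMP and TGF-beta pathway 15 of 80 members (18.8%) were called lower and 2 (2.5%) higher, beside 5.7% and 2.47% of all genes. *bmp10* (ENSDARG00000061769), a ligand of heart and endothelium, had 0.761, 0.921 and 2.02 CPM in the GFP+ and 11.3, 19 and 9.98 CPM in the GFP- libraries at 72 hpf, against 9.49, 23.2 and 12.1 CPM in the GFP+ and 8.71, 20.3 and 3.69 CPM in the GFP- libraries at 48 hpf. GFP+ at 72 hpf alone was low, after a fall of 3.63, and the interaction was -3.93 (SE 0.84, padj = 0.015). Of the 15 called lower, 7 lost a GFP+ enrichment, 3 gained a GFP- enrichment and 3 reversed, and the larger change was in GFP- cells for 10. Without replicate 1 or 2 of GFP+ at 72 hpf, replicate 1 of GFP+ or replicate 3 of GFP- at 48 hpf, 7 to 9 of the list were called lower, and 0 to 6 were called higher without 1 library.

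*dcn* (ENSDARG00000012066), the proteoglycan decorin, had 104, 100.3 and 196 CPM in the GFP+ and 202, 327 and 334 CPM in the GFP- libraries at 72 hpf, against 101, 104 and 90.6 CPM in the GFP+ and 16.1, 37.7 and 21.2 CPM in the GFP- libraries at 48 hpf. GFP- at 48 hpf was low, and the interaction was -3.08 (SE 0.53, padj = 0.0060). *OGN* (ENSDARG00000044132), the proteoglycan osteoglycin, had an interaction of -2.74 (SE 0.48, padj = 0.0063) and likewise rose in GFP- cells, by 3.36. The list of interstitial collagen and fibroblast genes had 4 of 23 (17.4%) called lower and 1 (4.35%) higher, beside 5.7% and 2.47% of all genes. It had 2 called lower without replicate 1 or 2 of GFP+ or replicate 2 of GFP- at 72 hpf, or replicate 3 of GFP+ or replicate 1 or 2 of GFP- at 48 hpf. Of 24 cartilage and pharyngeal mesenchyme genes 3 (12.5%) were lower, beside 5.7% of all genes. Among them was *dlx3b* (ENSDARG00000014626), a Distal-less homeobox factor, with an interaction of -3.7 (SE 0.53, padj = 0.0029).

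No interaction was called by edgeR's test in 64 cell cycle genes, 80 cytosolic ribosomal protein genes, 13 mitochondrially encoded genes and 27 neural crest and pigment genes. An unadjusted p below 0.05 was found for 2 cell cycle genes, 1 ribosomal protein gene and 3 pigment genes, and DESeq2's Wald test called 1, 0 and 3 of these lists. Where another list had none called higher, at most 2 members had such a p in that direction and at most 1 was called by DESeq2 or limma voom. Cell cycle genes fell with age in both fractions, 34 of the 64 in GFP+ and 45 in GFP- cells, beside 11.5% and 22.2% of all genes. *mki67*, a mark of cycling cells, had 179, 263 and 299 CPM in the GFP+ and 49, 187 and 149 CPM in the GFP- libraries at 72 hpf, against 671, 1099 and 718 CPM in the GFP+ and 812, 927 and 761 CPM in the GFP- libraries at 48 hpf. It was lower in every library at 72 hpf than in any at 48 hpf, and its interaction was 0.95 (padj = 0.33). Of 100 oxidative phosphorylation genes 3 were called lower, a share of 3.0% beside 5.7% of all genes. The median interaction of the list was -1.66, and -0.11 without replicate 1 of GFP- at 72 hpf. With age 78 of the 100 rose in GFP- and 3 in GFP+ cells, beside 26% and 11.4% of all genes. The mean log2 CPM of these 100 genes in replicates 1, 2 and 3 of GFP- was 8.54, 6.43 and 5.87 at 72 hpf. At 48 hpf it was 5.52, 5.14 and 5.6. Without replicate 3 of GFP- at 72 hpf, 16 of them were called lower, 6 without replicate 2 of that group, 1 without replicate 3 of GFP+ at 72 hpf or replicate 2 of GFP- at 48 hpf, and none without replicate 1 or 2 of GFP+ at 72 hpf, replicate 3 of GFP+ or replicate 1 or 3 of GFP- at 48 hpf. Ribosomal protein transcripts summed to 12603 to 25752 CPM in GFP+ and 10739 to 83571 CPM in GFP- libraries at 72 hpf, and their median interaction was -1.33. Without replicate 1 of GFP- at 72 hpf this median was 0.16.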

How the data were processed

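RNA from sorted GFP+ and GFP- cells of *sqet31Et* hearts at 72 and 48 hpf was sequenced in 12 libraries, 3 per group. The authors deposited raw counts per gene, 1 file per library, which were not normalized. Per the submitters' processing notes, bcl2fastq 2.16.0.10, cutadapt 1.17 and Salmon 0.9.1 were used with the genome build GRCz11. Salmon divides reads among similar transcripts, so that counts of near-identical copies are uncertain.

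Total counts were 20530602 to 62359004 per library. Of 66 pairs of libraries none held identical counts. Gene symbols came from the study's gene tables for 4186 IDs and from a table of gene names for 21423, and 1582 IDs had no symbol. Genes were filtered with filterByExpr by group, normalized with TMM and fitted as 4 groups with edgeR 4.0.16 (R 4.3.3) by glmQLFit and glmQLFTest, without a fold limit and with Benjamini-Hochberg adjustment over 23222 genes. Fold changes are log2 values of this fit, and its SE is given. A called gene was assigned to a class from the fraction difference called at each stage and to a side from the stage change called in each fraction. A group in which no library exceeded 3 counts was treated as at the floor and gave no fold change. A group with only some libraries near this floor kept its fold change, the size of which is then uncertain. The code was tested on simulated data with 200 changed genes.

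Genes were named by rule: for each class of gained, lost and reversed genes the 4 with the largest interaction among those with a symbol, a mean log2 CPM of at least 3, no group at the floor and the same sign in each same-numbered set of 4 libraries, and for each list the called members with the largest interaction, up to 4, with its defining members. A gene that the rule named in the neuron and synapse list is not reported here. Members, lists and tests were chosen with earlier results of these data known.

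The study's methods say that a replicate held both fractions for both stages, so that the numbers pair the fractions. The main fit of 4 groups did not use this pairing. Deviations from the group means correlated within the same number at 0.29, -0.089 and 0.294 at 72 hpf and at 0.082, 0.265 and 0.132 at 48 hpf. Across the stages they correlated at -0.099 to 0.227. Alternatives were size factors of DESeq2 1.42.0 or library totals in place of TMM, other filters, DESeq2's Wald test, limma 3.58.1 voom, a fold limit, replicate blocks, and leaving out each library. Tables used Python 3.11.15, pandas 2.3.3 and numpy 2.4.6. Sequences and coordinates were not used here.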

Additional observations from a re-analysis of the deposited data

Results flagged for a closer look

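In 1896 of the 23222 tested genes, the difference between the fractions was itself different at the 2 stages by edgeR's quasi-likelihood test of the interaction. It was higher at 72 than at 48 hpf in 573 genes and lower in 1323. In 159 of the called genes it was called at both stages with opposite signs.

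Among the named genes the interaction was 4.66 for *penka*, 3.83 for *flnb*, 3.39 for *tnfsf12* and 3.31 for *FRMD1*, which gained a GFP+ enrichment. It was -6.61 for *cbln11*, -6.6 for *tagln*, -6.59 for *uox* and -6.58 for *hamp*, which lost one. Genes with a gained GFP- enrichment were *ins* at -9.34, *OPN1SW* at -8.79, *opn1sw2* at -8.29 and *pde6ha* at -7.59. Those with a lost GFP- enrichment were *SIPA1* at 4.72, *her4.3* at 4.31, *RAP1GAP* at 4.24 and *SOX14* at 3.9. The fractions changed places towards GFP+ in *stxbp5l* at 5.59, *cnih2* at 5.2, *DST* at 4.44 and *ebf3a* at 4.35, and towards GFP- in *sst2* at -11.68, *sst1.2* at -9.76, *ecrg4a* at -4.84 and *rprmb* at -4.64. These genes were named for the size of their interaction, and the values describe them. Without replicate 1 of GFP- at 72 hpf the negative interactions were -5.14 for *cbln11*, -5.13 for *tagln*, -5.77 for *uox* and -5.15 for *hamp*. They were -7.01 for *ins*, -8.81 for *OPN1SW*, -8.38 for *opn1sw2* and -6.23 for *pde6ha*. For *sst2*, *sst1.2*, *ecrg4a* and *rprmb* they were -9.46, -7.73, -3.69 and -3.75.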

How the results depend on the processing

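DESeq2's Wald test called 1340 genes higher and 2496 lower, with 933 gained, 1947 lost and 303 reversed fraction differences, and with a stage change in GFP+ only for 680 and in GFP- only for 2247. Library totals in place of TMM gave 179 higher, 628 lost, 80 reversed and 715 with a change in GFP- only. A test against an absolute log2 fold change of 1 left 159 higher and 500 lower. With the replicate number as a block within each stage 1036 genes were called higher and 251 reversed, while the block shared by the stages gave 683 higher and 1345 lower. Without 1 library, 286 to 1461 genes were called higher, 664 to 2103 lower, 262 to 780 gained, 479 to 1957 lost and 70 to 274 reversed, with a change in GFP+ only for 171 to 615 and in GFP- only for 599 to 2324. The highest counts came without replicate 3 of GFP- at 72 hpf, except that of GFP+ only, which came without replicate 1 of that group. DESeq2 size factors, limma voom and the other filters moved none of these counts by more than 1.5 times. Over the named genes and all alternatives, 3503 values kept their side of the threshold, 374 lost and 53 gained a call, and no called interaction changed sign. The causes were not tested. Counts of 3 or fewer in a group limit 114 of the 1896 called genes, for which no single fold change is given. The class and list medians and ranges include them.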
